A study of Mus musculus with 12 samples.

Results

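Acetylation of histone H3 at lysine 27 (H3K27ac) over the Myc and Pvt1 genes of 4T1 mouse mammary carcinoma cells was examined as 19 of the 126464 chromatin immunoprecipitation intervals of the series. The members are all intervals whose assigned gene symbol is Myc, 9 in number, or Pvt1, 10 in number, and all lie on chromosome 15. The 6 treatments lasted 48 h and had 2 libraries each. There were 3 backgrounds, namely vehicle, etomoxir at 50 µM, and etomoxir with SB204990, both at 50 µM, and each background was given either no acetate or 5 mM acetate. The library names carry 1 of 2 suffixes, here called set 1 and set 2, whose meaning the labels do not give. Etomoxir inhibits the carnitine palmitoyltransferase step of fatty acid oxidation. SB204990 inhibits ATP-citrate lyase, the enzyme that releases acetyl-CoA from citrate, and acetate can be turned into acetyl-CoA without either step. All groups share the 4T1 background and 7.5% human chromatin added as a spike-in, and nothing in the labels says that the 2 libraries of a treatment came from separate cultures, so that the p-values below measure the spread between libraries, which may be technical.

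Myc encodes a transcription factor that pairs with MAX, binds E-box sequences and drives genes of ribosome production, nucleotide synthesis and the cell cycle. Pvt1 is a long non-coding RNA gene just downstream of Myc, and its body holds enhancers that can contact the Myc promoter. The 2 genes form one of the most often amplified regions of carcinomas, and H3K27ac is a mark of active promoters and enhancers that p300 and CBP write from acetyl-CoA.

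On the mm10 build, the GENCODE M21 annotation places Myc at chr15:61985391-61990374 and Pvt1 at chr15:62037986-62378096, both on the plus strand, so that Pvt1 starts 52595 bp after Myc and runs over 340111 bp. Each interval is named here by its symbol and by the distance of its centre from the Myc start. The interval Myc +3.2 kb (chr15:61974212-62002965, 28754 bp) covered the Myc start and all 14 distinct exons listed for Myc. The interval Pvt1 +123.4 kb (chr15:62024683-62192905, 168223 bp) covered the Pvt1 start and 15 of the 34 distinct exons listed for Pvt1. It was followed by 4 members inside the Pvt1 body, Pvt1 +224.4 kb (32843 bp, 2 exons), Pvt1 +264.8 kb (42685 bp, 12 exons), Pvt1 +289.9 kb (7402 bp) and Pvt1 +308.2 kb (27987 bp), and the last 2 touched no exon. These 5 Pvt1 intervals spanned 282.898 kb and covered 98.7% of it, with gaps of 86 to 2577 bp. The other 13 members were 228 to 2438 bp long and lay outside both genes, 1 at -78.7 kb and 12 at -25.5 to +38.0 kb. The symbol is the deposited one, and it does not follow the gene's borders. The 5 short Pvt1 members lie before the Pvt1 start, and 14 of the 19 intervals that touch the Pvt1 gene carry another symbol, Gm41333, and are not members.

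The sequence is shown for 3 short members, because they held the largest changes among the short intervals or, for Myc +18.5 kb, the one match of a short member to the motifs searched in the central 300 bases of members of at least that length. Each is the central 300 bases of the interval on the plus strand of GRCm38 (mm10), and the motif match is in capitals. Myc +18.5 kb is shown for chr15:62003713-62004012, Myc +21.4 kb for chr15:62006670-62006969, where the average acetate change was largest, and Pvt1 +32.1 kb for chr15:62017356-62017655, where the change with acetate in etomoxir was largest.
Myc +18.5 kb: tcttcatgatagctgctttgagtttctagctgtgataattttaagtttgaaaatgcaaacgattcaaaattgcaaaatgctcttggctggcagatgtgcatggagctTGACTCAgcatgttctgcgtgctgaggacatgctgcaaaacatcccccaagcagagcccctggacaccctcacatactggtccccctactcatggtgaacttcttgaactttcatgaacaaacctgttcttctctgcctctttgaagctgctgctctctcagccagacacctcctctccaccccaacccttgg
Myc +21.4 kb: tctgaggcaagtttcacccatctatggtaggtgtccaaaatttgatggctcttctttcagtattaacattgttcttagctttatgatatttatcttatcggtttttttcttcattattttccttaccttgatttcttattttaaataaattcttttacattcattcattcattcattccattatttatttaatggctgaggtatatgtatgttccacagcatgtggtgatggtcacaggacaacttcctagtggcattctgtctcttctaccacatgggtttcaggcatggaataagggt
Pvt1 +32.1 kb: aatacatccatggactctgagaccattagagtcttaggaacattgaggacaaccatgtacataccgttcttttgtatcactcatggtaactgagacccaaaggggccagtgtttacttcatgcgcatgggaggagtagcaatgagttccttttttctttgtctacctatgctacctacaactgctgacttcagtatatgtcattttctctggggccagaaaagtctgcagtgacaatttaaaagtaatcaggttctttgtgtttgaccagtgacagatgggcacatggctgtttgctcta
The G+C content of these windows was 47.7%, 34.3% and 42.7%. The motifs searched on both strands were the E-box CACGTG, bound by MYC and MAX, the AP-1 motif TGANTCA, and the GC box GGGCGG, bound by SP factors. Among the 17 members of at least 300 bp, the central 300 bases held an E-box in 0, an AP-1 match in 1, which is Myc +18.5 kb from base 108 of its window, and a GC box in 1, which is Myc +3.2 kb. The same windows of all 101624 intervals of that length held them in 4.16%, 11.5% and 6.47%. Over their whole length, the Myc intervals held 18 GC boxes, all of them in Myc +3.2 kb, or 0.516 per kb, vs. 0.331 per kb in all intervals and 0.0814 per kb in the Pvt1 intervals. AP-1 matches numbered 19 in the Myc intervals and 97 in the Pvt1 intervals, 0.545 and 0.343 per kb vs. 0.373 per kb in all intervals, and E-boxes numbered 3 and 30, 0.0860 and 0.106 per kb vs. 0.155 per kb.

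The values are reads per interval multiplied by a spike-in factor for each library, called scaled signal below. The factors were set relative to the highest, and a factor of 1 occurs once in each set, so that values of the 2 sets may be on separate scales, and the overlaps, SDs and orders of means below cross them. The 12 libraries held 7179165 to 16676442 reads in intervals, and a member held 7 to 27156 reads per library. In set 2, etomoxir + SB204990 differed from all other libraries, with the fewest reads and 2.77% of them in the intervals of lowest mean signal (the 25% weakest) vs. 0.990% to 1.41% in the other 11. No input or copy-number library was used here, so that acetylation per copy and the number of copies cannot be told apart, nor can the level per cell and the share of cells with the mark. The epithelial genes Krt8, Cdh1, Epcam and Krt14 had median sums of 3689, 2520, 954 and 482, no interval carries the symbol Krt18, and Ptprc, Cd3e, Pdgfra and Lum had median sums of 60.3, 13.8, 57.6 and 53.2. Of the endothelial genes, Pecam1 had a median sum of 668 and Cdh5 of 123.

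Pvt1 +123.4 kb carried the highest mean scaled signal of all 126464 intervals, 15602 over the 12 libraries, and ranked first in 11 of them. The second, an interval of Sbno2 on chromosome 10 of nearly the same length, 166.985 kb, had a mean of 12011, so that the first was 1.30 times as high. Per kb of interval, the order within the locus was different. Myc +3.2 kb held 141 per kb and ranked 52 of all intervals, Pvt1 +308.2 kb held 103 per kb and ranked 130, and Pvt1 +123.4 kb held 92.7 per kb and ranked 224. Pvt1 +224.4 kb, Pvt1 +264.8 kb and Pvt1 +289.9 kb held 57.1, 47.2 and 39.3 per kb. The median was 43.5 per kb over the 1707 intervals of 20 kb or more and 16.4 per kb over all intervals. The 13 short members held 25.1 to 48.9 per kb but together had 1.21% of the members' signal, and the split into 6 long and 13 short members was made after their values were seen. Thus the signal of Myc was highest per kb in the 28754 bp interval that covers the whole gene. The 1 value of that interval cannot place the signal at the gene's start. The signal of Pvt1 was spread at a lower level over most of its body, with a second rise in its last, intronic member.

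**Figure D1:**
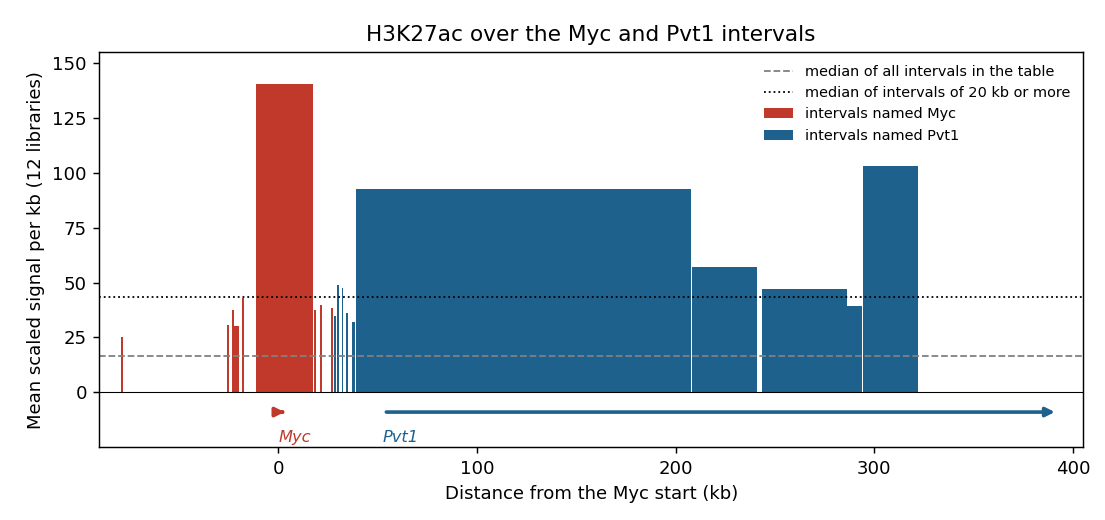
Mean scaled H3K27ac signal per kb (vertical axis, 12 libraries) of the 19 member intervals against the distance from the Myc start in kb. Bars are as wide as the intervals (at least 0.8 kb), arrows below 0 are the 2 genes, and the lines are the medians of all intervals (16.4 per kb) and of those of 20 kb or more (43.5 per kb). Myc +3.2 kb stands at 141 per kb and the long first Pvt1 interval at 92.7 per kb.

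Summed over the intervals of a symbol, Pvt1 ranked 2 of 22264 symbols with a mean of 22788, and Myc ranked 163 with 4248. The symbol above Pvt1 also lies here. Gm49498 has 37 intervals from -564.8 to -328.9 kb with a mean sum of 25377 at 159 per kb. Of all signal within 3 Mb of the Myc start, Gm49498 held 21.8%, Pvt1 19.6%, 1700010G06Rik, from +2219.3 to +2402.1 kb, 11.9%, Fam49b 5.14%, Gm41333 4.10% and Myc 3.65%. In bins of 1 Mb over the genome, the bin at 61 to 62 Mb of chromosome 15, which holds Gm49498 and most of the Myc intervals, ranked 2 of 2577 with a mean signal of 35111, the bin at 62 to 63 Mb, which holds Pvt1, ranked 5 with 27694, and that at 64 to 65 Mb ranked 4 with 29296. The median bin held 1741. The bins at 60 to 61 and 63 to 64 Mb ranked 1024 and 1140, so that the high signal came in separate stretches and not as a uniform rise. Chromosome 15 ranked 2 among the chromosomes in signal per Mb, with 5913 vs. 6230 on chromosome 11, which ranked 1.

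The first question was whether acetate raised H3K27ac over these genes in each inhibitor background. Summed signal was higher with acetate for both genes in every background and in both sets. For Pvt1, the 2 vehicle libraries had sums of 16937 and 19797 and the acetate libraries 23436 and 25158. Under etomoxir alone the sums were 20253 and 19769, and with acetate added they were 33904 and 32971, the highest of the 6 treatments. Under etomoxir + SB204990 they were 13190.2 and 18398, and with acetate added 21117 and 28531. The acetate libraries lay above their partner libraries without overlap in each background.

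For Myc, the sums were 3519 and 3220 with vehicle and 5075 and 4251 with acetate. They were 3891 and 4171 with etomoxir and 5702 and 5764 with etomoxir + acetate. Under etomoxir + SB204990 they were 2945 and 2704, the lowest of the 6 treatments, and with acetate added 3982 and 5749. Here too no acetate library overlapped its partners, and the pair with the widest spread was the last.

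**Figure D2:**
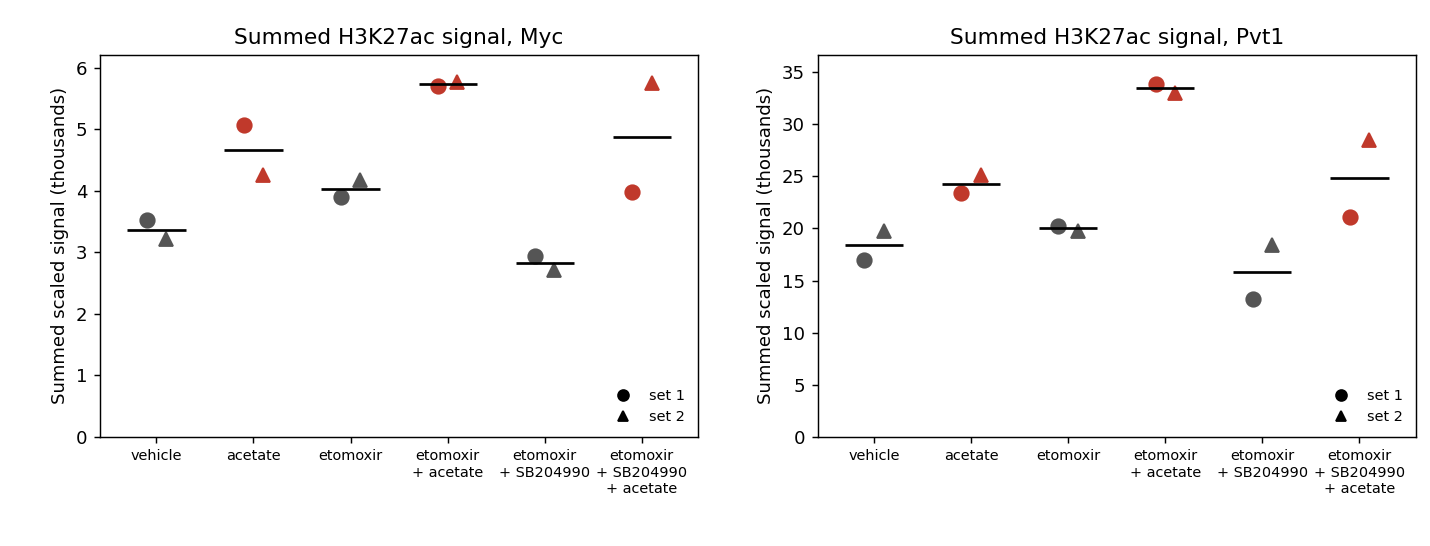
Summed scaled H3K27ac signal divided by 1000 (vertical axes) of Myc (left) and Pvt1 (right) in each library, by treatment. Circles are set 1, triangles set 2, bars the mean of 2 libraries, and red marks treatments with acetate. In each of the 3 backgrounds both acetate libraries lie above both libraries without acetate.

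Averaged over the 3 backgrounds, the summed signal rose 1.49-fold for Myc (log2 change 0.58) and 1.52-fold for Pvt1 (0.60). When acetate labels were permuted within backgrounds (exact permutation test), the 2-sided p was 0.00926 for each, the smallest that its 216 arrangements can give. These arrangements also swap labels between the 2 sets, which may be on separate scales. Fewer arrangements swap labels only within a set, so their smallest p is larger, and that test was not run. Signal was higher with acetate in 6 of 6 comparisons within a set and background. The average was 0.50 in set 1 and 0.65 in set 2 for Myc, and 0.63 and 0.57 for Pvt1. Within set 1 and set 2, the Myc changes were 0.53 and 0.40 in vehicle, 0.55 and 0.47 in etomoxir and 0.44 and 1.09 in etomoxir + SB204990, and those of Pvt1 were 0.47 and 0.35, 0.74 and 0.74, and 0.68 and 0.63. With limma on log2(sum + 1) over 22264 symbols and Benjamini-Hochberg adjustment, the averages were 0.58 ± 0.11 (SE, adjusted p = 0.000321) and 0.60 ± 0.13 (adjusted p = 0.000891), in a comparison that called 77.5% of all symbols as higher. By background, limma gave 0.46 ± 0.19 for Myc and 0.41 ± 0.23 for Pvt1 with acetate vs. vehicle (adjusted p = 0.123 and 0.180), 0.51 ± 0.19 and 0.74 ± 0.23 in etomoxir (0.0278 and 0.0131), and 0.76 ± 0.19 and 0.66 ± 0.23 in etomoxir + SB204990 (0.0119 and 0.0313). The 2 genes were thus called higher in etomoxir and in etomoxir + SB204990, beside 66.0% and 45.2% of all symbols, and in the average. They were not called in the vehicle background at this threshold, where 0.0% of symbols were called. The terms that test whether the acetate change differed from that in vehicle were 0.04 ± 0.26 for Myc and 0.33 ± 0.32 for Pvt1 in etomoxir, and 0.30 ± 0.26 and 0.25 ± 0.32 in etomoxir + SB204990 (limma adjusted p = 0.807 to 1.00), so that no difference between backgrounds was shown.

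The calls within 1 background, of these genes as of the whole table, changed when a library was left out. In etomoxir, leaving out any of its 4 libraries kept the change at 0.46 to 0.56 for Myc and 0.72 to 0.76 for Pvt1, with limma adjusted p of 0.0921 to 0.136 and 0.0607 to 0.0888. All symbols called higher fell from 66.0% to 35.0% and 41.0% without the set 1 etomoxir and the set 2 etomoxir + acetate library, and to 0.0% without either of the others. In etomoxir + SB204990 the Myc call was lost without the acetate library of set 2 (0.50, adjusted p = 0.105), and the Pvt1 call was lost without that library (0.44, 0.173), without the set 1 library of etomoxir + SB204990 (0.42, 0.321) and, with the change kept at 0.66, without any 1 library of acetate, etomoxir or etomoxir + acetate (0.0510 to 0.0570). Beside 45.2% in the full fit, all symbols were called higher in 0.0% without the set 2 acetate library, in 16.1% without the set 1 library of etomoxir + SB204990 and in 35.4% to 37.7% without 1 of the last 6. With acetate vs. vehicle, the Myc sum passed without the set 1 or the set 2 etomoxir + SB204990 library (0.0397 and 0.0387) and in a fit limited to the 4 libraries compared (0.0164), with the change at 0.46 and 47.4%, 48.2% and 46.2% of all symbols called higher.

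Most other symbols moved the same way. The median change of all symbols was 0.47, 0.78 and 0.62 in the 3 backgrounds and 0.62 in the average, beside 0.46, 0.51, 0.76 and 0.58 for Myc and 0.41, 0.74, 0.66 and 0.60 for Pvt1. As a share of all scaled signal in intervals, which does not use the spike-in factor, Myc held 0.0377% to 0.0550% and Pvt1 0.233% to 0.258% across the 12 libraries. Shares of Pvt1 were 0.248% and 0.258% with vehicle, 0.233% and 0.252% with acetate, 0.253% and 0.252% with etomoxir, 0.248% and 0.255% with etomoxir + acetate, 0.246% and 0.256% with etomoxir + SB204990, and 0.246% and 0.253% with acetate added to both. The Pvt1 shares with and without acetate overlap in each background. The Myc shares overlapped in vehicle and in etomoxir + SB204990, while those with etomoxir, 0.0486% and 0.0531%, lay above those with etomoxir + acetate, 0.0418% and 0.0446%. Over all backgrounds the share differed with acetate by -0.03 on the log2 scale for Pvt1 (exact permutation p = 0.352, higher in 1 of 6 comparisons within a set) and by -0.05 for Myc (p = 0.676, higher in 2 of 6). For both genes summed, the share differed by -0.03 (exact permutation p = 0.111, higher in 1 of 6).

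**Figure D3:**
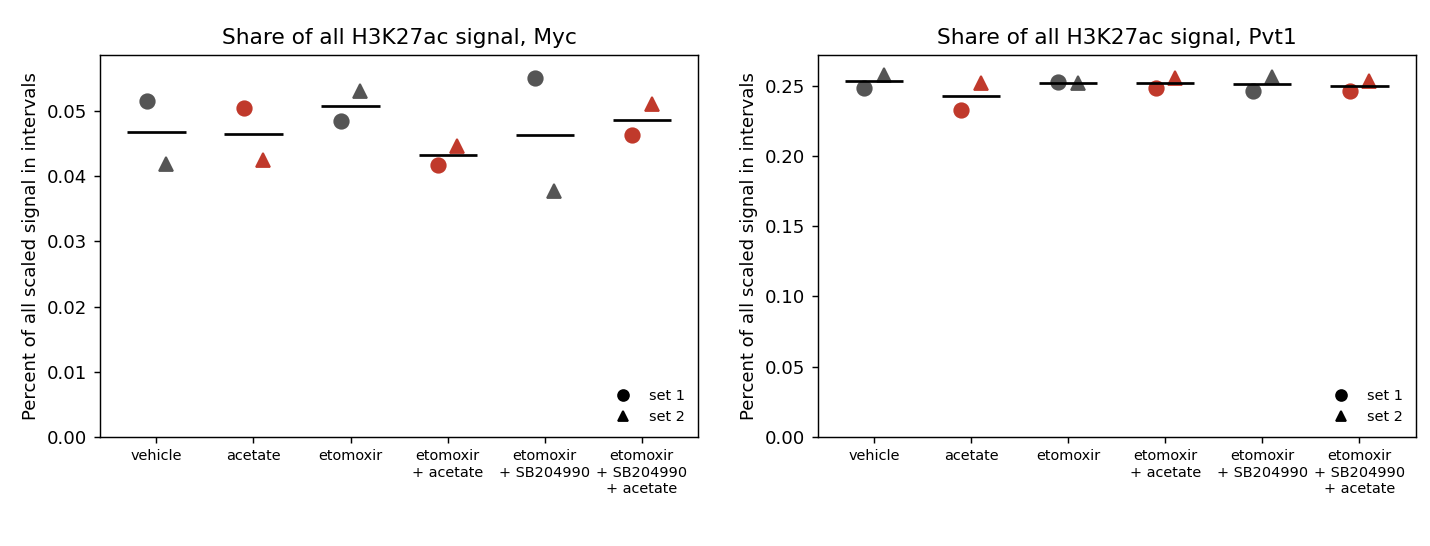
Percent of all scaled signal in intervals (vertical axes) held by Myc (left) and Pvt1 (right) in each library, by treatment. Circles are set 1, triangles set 2, bars the mean of 2 libraries, and red marks treatments with acetate. Pvt1 stays between 0.233% and 0.258% and Myc between 0.0377% and 0.0550%.

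Median-of-ratios scaling sets the typical symbol equal between libraries for the limma fits of sums, and the typical interval for those of intervals. After it, the average acetate change of the sums was -0.06 for Myc and -0.04 for Pvt1 (limma adjusted p = 0.904 and 0.902). Where each library's reads were first divided by their total and then multiplied by the spike-in factor, it was 0.37 for Myc and 0.40 for Pvt1 (adjusted p = 0.445 and 0.447). The deposited values are reads multiplied by the factor with no division by depth, so that depth and factor both enter the rise.

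By interval, the 6 long members carried most calls. All 19 members had a mean of at least 10 and were tested among 63903 intervals with limma on log2(scaled signal + 1). In the average over backgrounds, 10 of 19 members were called higher at an adjusted p of 0.05 vs. 77.2% of all tested intervals. The 10 were all 6 long members and 4 short ones, Myc -21.2 kb, Myc +21.4 kb, Myc +26.9 kb and Pvt1 +32.1 kb. With only intervals of a mean of at least 50, 7 of 7 members were called higher, beside 99.1% of all such intervals. The median change of the 19 was 0.52, that of the 6 long ones 0.59 and that of the 13 short ones 0.44, beside 0.64 for all tested intervals. None was called lower, and the smallest changes were 0.04 ± 0.27 (SE) at Myc -23.0 kb and 0.12 ± 0.30 at Myc -78.7 kb.

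Over the Myc start, Myc +3.2 kb had 3394 and 3025 with vehicle and 4907 and 4036 with acetate. It had 3703 and 3995 with etomoxir and 5371 and 5499 with etomoxir + acetate. With etomoxir + SB204990 it had 2836 and 2468, and with acetate added 3784 and 5502. The average acetate change was 0.59 ± 0.10 (SE, limma adjusted p = 3.57e-08), and the acetate libraries lay above those without acetate in each background.

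Over the Pvt1 start, Pvt1 +123.4 kb had 11669 and 13601 with vehicle and 16392 and 17556 with acetate. It had 13589 and 13341 with etomoxir and 22946 and 22209 with etomoxir + acetate. With etomoxir + SB204990 it had 9174 and 12272, and with acetate added 14606 and 19863. The average change was 0.62 ± 0.10 (limma adjusted p = 9.53e-09), with no overlap within a background.

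Among the other long Pvt1 members, the average acetate change was largest at Pvt1 +289.9 kb, 0.70 ± 0.12, and smallest at Pvt1 +308.2 kb, 0.52 ± 0.10 (limma adjusted p = 7.12e-08 and 1.02e-06), a gap of about the size of their errors that was not itself tested. Pvt1 +289.9 kb had 196 and 255 with vehicle, 278 and 346 with acetate, 243 and 246 with etomoxir, 446 and 499 with etomoxir + acetate, 130 and 256 with etomoxir + SB204990, and 254 and 345 with acetate added. Its libraries with and without acetate overlapped under etomoxir + SB204990 and did not overlap in the other 2 backgrounds. Pvt1 +308.2 kb, the last member, had 2274 and 2432 with vehicle, 2976 and 2912 with acetate, 2742 and 2694 with etomoxir, 4208 and 4197 with etomoxir + acetate, 1729 and 2296 with etomoxir + SB204990, and 2560 and 3601 with acetate added, with no overlap in any background. Pvt1 +224.4 kb had 1333 and 1615 with vehicle, 1798 and 2038 with acetate, 1681 and 1615 with etomoxir, 2947 and 2751 with etomoxir + acetate, 1039.9 and 1722 with etomoxir + SB204990, and 1769.6 and 2174 with acetate added, an average change of 0.57 ± 0.10 (limma adjusted p = 1.03e-07). Pvt1 +264.8 kb had 1391 and 1776 with vehicle, 1895 and 2169 with acetate, 1889.9 and 1755 with etomoxir, 3153 and 3128 with etomoxir + acetate, 1058 and 1718 with etomoxir + SB204990, and 1815 and 2433 with acetate added, an average change of 0.60 ± 0.10 (limma adjusted p = 3.05e-08). Neither had an overlap in any background.

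The 4 short members that were called in the average were weak, and their libraries overlapped more. Myc -21.2 kb, the longest short member, had 49.1 and 69.7 with vehicle, 63.4 and 90.5 with acetate, 65.7 and 56.7 with etomoxir, 110.0 and 98.9 with etomoxir + acetate, 35.0 and 75 with etomoxir + SB204990, and 71.8 and 91.9 with acetate added to both. Its average change was 0.59 ± 0.17 (limma adjusted p = 0.00119), and its libraries with and without acetate overlapped in 2 backgrounds and not in etomoxir. Myc +21.4 kb, shown in sequence above, had 3.27 and 10.3 with vehicle, 12.1 and 12.9 with acetate, 9.72 and 13.2 with etomoxir, 34.0 and 14.4 with etomoxir + acetate, 9.96 and 12 with etomoxir + SB204990, and 14.2 and 16.5 with acetate added to both. The first of these values stood for 7 reads, and the average change of 0.77 ± 0.30, the largest of all members, had an adjusted p of 0.0175 and was 1.27 in set 1 and 0.28 in set 2. Myc +26.9 kb had 14.5 and 30.1 with vehicle, 21.7 and 30.2 with acetate, 22.9 and 24.1 with etomoxir, 56.0 and 47.0 with etomoxir + acetate, 15.1 and 36.0 with etomoxir + SB204990, and 25.9 and 38.2 with acetate added to both. It changed by 0.59 ± 0.24 (limma adjusted p = 0.0184), and its libraries with and without acetate did not overlap in etomoxir and overlapped in the other 2 backgrounds. Pvt1 +32.1 kb had 10.3 and 11.1 with vehicle, 14.5 and 12.9 with acetate, 12 and 12 with etomoxir, 28.0 and 27.8 with etomoxir + acetate, 6.37 and 20.0 with etomoxir + SB204990, and 9.70 and 22.5 with acetate added to both, with an average change of 0.61 ± 0.29 (limma adjusted p = 0.0477). Its etomoxir + acetate libraries stood above all others, and the 2 libraries of etomoxir + SB204990 differed more from each other than either did from its acetate partner.

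Of the 10 strongest members, Pvt1 +38.0 kb and Myc +18.5 kb did not pass in the average. Pvt1 +38.0 kb, which lies between the genes, had 29.4 and 48.3 with vehicle, 35.6 and 56.0 with acetate, 45.1 and 53.8 with etomoxir, 85.0 and 68.2 with etomoxir + acetate, 27.1 and 51.0 with etomoxir + SB204990, and 56.3 and 39.9 with acetate added to both. Its average change was 0.40 ± 0.19 (limma adjusted p = 0.0518). Myc +18.5 kb had 23.8 and 34.1 with vehicle, 26.0 and 31.0 with acetate, 28.0 and 23.5 with etomoxir, 45.0 and 39.4 with etomoxir + acetate, 14.7 and 35.0 with etomoxir + SB204990, and 31.7 and 39.9 with acetate added to both, with an average change of 0.44 ± 0.23 (limma adjusted p = 0.0716). In both members the libraries with and without acetate did not overlap in etomoxir and overlapped in the other 2 backgrounds.

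By background, 9 of 19 members were called higher in etomoxir + acetate vs. etomoxir, beside 56.4% of all tested intervals, and 6 of 19 in etomoxir + SB204990 + acetate vs. etomoxir + SB204990, beside 27.4% called higher and 0.00313% lower. In acetate vs. vehicle 0 members were called by limma, beside 0.0955% of all tested intervals called higher and 0.0% lower, while 5 members had an unadjusted p under 0.05, beside 26.5% of all tested intervals. On the recovered reads edgeR and DESeq2 also called 0 members, beside 0.122% and 1.4% of all tested intervals called higher. The 6 long members were called in both inhibitor backgrounds, and in etomoxir they were joined by Myc -21.2 kb, Myc +26.9 kb and Pvt1 +32.1 kb. Strong intervals of the whole table were also mostly called. With only intervals of a mean of at least 50, 7 of 7 members were called higher in etomoxir, beside 92.3% of all such intervals. In etomoxir + SB204990 it was 7 of 7 beside 79.8%. In acetate vs. vehicle 17 of 19 members had a positive change, from 0.96 ± 0.53 at Myc +21.4 kb and 0.47 ± 0.17 at Myc +3.2 kb to -0.01 ± 0.40 at Myc +18.5 kb and -0.02 ± 0.54 at Myc -18.1 kb. In etomoxir the range ran from 1.15 ± 0.51 at Pvt1 +32.1 kb and 1.10 ± 0.41 at Myc +26.9 kb to 0.11 ± 0.47 at Myc -23.0 kb and -0.02 ± 0.51 at Myc -78.7 kb. In etomoxir + SB204990 it ran from 0.79 ± 0.17 at Myc +3.2 kb and 0.69 ± 0.21 at Pvt1 +289.9 kb to 0.07 ± 0.55 at Myc -25.5 kb and -0.11 ± 0.47 at Myc -23.0 kb. The medians of the 19 members were 0.31, 0.76 and 0.45 in the 3 backgrounds, beside 0.48, 0.83 and 0.62 over all tested intervals.

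**Figure D4:**
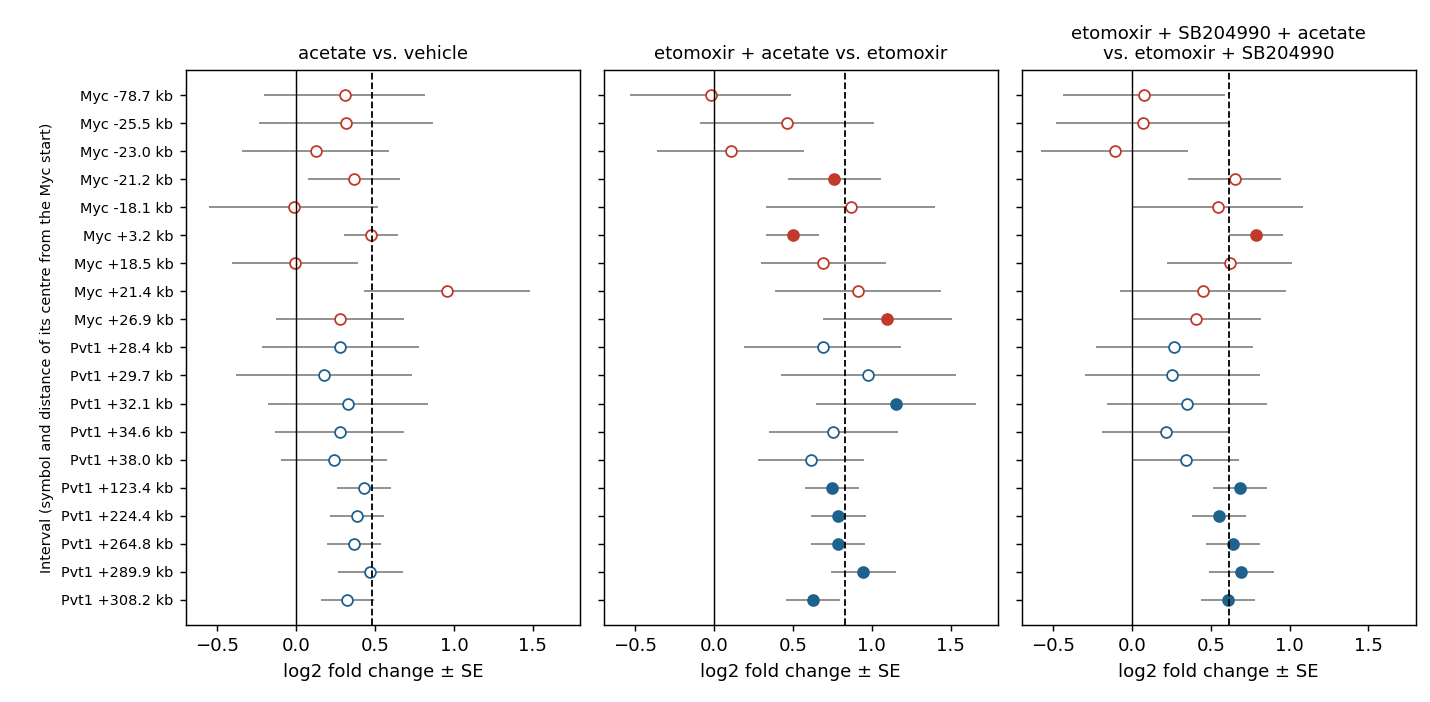
log2 fold change with acetate ± SE (horizontal axes, limma) of the 19 member intervals, ordered by position, in the 3 inhibitor backgrounds. Filled points have an adjusted p under 0.05, red is Myc and blue Pvt1, and the dashed line is the median of all tested intervals (0.48, 0.83 and 0.62). The 6 long members are filled in the middle and right panels and none is filled in the left one.

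The counts changed with single libraries, and so did those over all tested intervals, given in percent called higher. In etomoxir, 9 members (56.4%) became 5 (25%) without the set 1 and 4 (10.5%) without the set 2 etomoxir library. They became 4 (8.05%) and 5 (27%) without the set 1 and set 2 etomoxir + acetate libraries, and 14 (76.8%) without the set 1 library of etomoxir + SB204990. In etomoxir + SB204990, 6 (27.4%) became 1 (8.28%) without its set 1 library, 12 (71.6%) without its set 2 library and 2 (3.31%) without the set 2 acetate library. In acetate vs. vehicle, 0 (0.0955%) became 2 when any 1 of the 4 libraries treated with SB204990 was left out (8.98% to 21.2%). In the average, 10 (77.2%) became 16 (94.8%) without the set 2 etomoxir + SB204990 library. After median-of-ratios scaling, 0 members were called by limma in any of the 4 acetate comparisons, beside 0.0% of all tested intervals called higher in each and at most 0.00156% lower. The members' medians were then -0.15, -0.10 and -0.08 by background and -0.10 in the average, beside -0.0034, -0.013, 0.07 and 0.02 over all tested intervals.

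The next question was whether the inhibitors changed the locus without acetate. Etomoxir vs. vehicle gave 0.26 ± 0.19 for the Myc sum and 0.13 ± 0.23 for the Pvt1 sum (limma adjusted p = 0.996 for both), and etomoxir + SB204990 vs. vehicle gave -0.25 ± 0.19 and -0.23 ± 0.23 (0.791 and 0.800). The Myc difference with both inhibitors was -0.26 in set 1 and -0.25 in set 2, and that of Pvt1 was -0.36 and -0.11. Etomoxir + SB204990 vs. etomoxir gave -0.51 ± 0.19 for Myc and -0.36 ± 0.23 for Pvt1 (0.256 and 0.331), beside a median of -0.31 over all symbols. In set 1 and set 2 these were -0.40 and -0.63 for Myc and -0.62 and -0.10 for Pvt1. The median over all tested intervals was -0.30 there. It was 0.093 without the set 1 library of etomoxir + SB204990 and -0.63 without the set 2 library. None of these changes in the sums passed in the full fit. No member was called by limma in the 3 comparisons, in either direction. In the third, limma called 6 members lower without the set 2 library of etomoxir + SB204990, beside 25.1% of all tested intervals. It called 3 lower without the set 1 or the set 2 library of etomoxir + SB204990 + acetate, beside 4.18% and 4.16%, and 3 in a fit limited to the 4 libraries compared, beside 0.858%. In the full fit, all tested intervals were called higher in 0.0563%, 0.0313% and 0.025% and lower in 0.00626%, 0.0219% and 0.0219%. At an unadjusted p under 0.05 there were 0 members in the first, 0 in the second and 5 in the third, beside 1.41%, 5.06% and 14.1% of all tested intervals. edgeR and DESeq2 called 0 members in each of these comparisons, beside at most 0.2% of all tested intervals called higher and 0.0391% lower. The largest differences with both inhibitors vs. vehicle were 0.78 ± 0.53 at Myc +21.4 kb and 0.44 ± 0.54 at Myc -18.1 kb, and the smallest -0.31 ± 0.40 at Myc +18.5 kb and -0.29 ± 0.21 at Pvt1 +289.9 kb. With etomoxir vs. vehicle they were 0.83 ± 0.53 at Myc +21.4 kb and 0.81 ± 0.51 at Myc -78.7 kb, and 0.03 ± 0.56 at Pvt1 +29.7 kb and -0.15 ± 0.40 at Myc +18.5 kb. With both inhibitors vs. etomoxir the lowest were -0.54 ± 0.17 at Myc +3.2 kb and -0.52 ± 0.51 at Myc -78.7 kb and the highest 0.02 ± 0.54 at Myc -18.1 kb and -0.00086 ± 0.41 at Myc +26.9 kb.

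Short and long members differed here by library. The 6 long members together had 15965 and 20732 with etomoxir + SB204990 vs. 20256 and 22704 with vehicle, lower in both sets. The 13 short members had 170 and 370.0 vs. 200 and 313, lower in set 1 and higher in set 2. The short members took 1.75% of the members' reads in the set 2 library of etomoxir + SB204990, beside 0.925% to 1.36% in the other 11, and this is the library with 2.77% of its reads in the 25% weakest intervals. The part of that library in the differences was not tested beyond leaving it out, after which 1 member was called lower in etomoxir + SB204990 vs. vehicle, beside 3.92% of all tested intervals.

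With acetate present in both groups, etomoxir + acetate vs. acetate gave 0.30 ± 0.19 for the Myc sum and 0.46 ± 0.23 for the Pvt1 sum (limma adjusted p = 0.236 and 0.182), beside a median of 0.43 over all symbols, of which 0.0225% were called higher. Adding SB204990 to etomoxir + acetate gave -0.26 ± 0.19 and -0.45 ± 0.23 (0.273 and 0.163), beside -0.46 and 0.00449% called lower, and etomoxir + SB204990 + acetate vs. acetate gave 0.04 ± 0.19 and 0.02 ± 0.23 (1.00 and 1.00). No member was called by limma in any of the 3, beside 0.155%, 0.0% and 0.0423% of all tested intervals called higher and 0.0%, 0.00156% and 0.00156% lower, and 8, 7 and 0 members had an unadjusted p under 0.05, beside 24.5%, 27.3% and 1.08% of all tested intervals. edgeR and DESeq2 called 0 members in each, beside at most 0.164% of all tested intervals called higher and 0.00156% lower. The first 2 of these zeros changed with single libraries. For etomoxir + acetate vs. acetate, limma called 7 members higher without the set 1 or the set 2 etomoxir + SB204990 library, beside 16.6% and 16.7% of all tested intervals, and 3 without the set 1 or the set 2 etomoxir + SB204990 + acetate library, beside 0.451% and 0.448%. It called 12 in a fit limited to the 4 libraries compared, beside 45.2%, and 1 of the 7 with a mean of at least 50, beside 1.07%. With SB204990 added to etomoxir + acetate, it called 6 lower without the set 1 or the set 2 etomoxir + SB204990 library, beside 21.4% of all tested intervals each time, and 6 without the set 2 library of etomoxir + SB204990 + acetate, beside 15.2%. Without that last library the Myc and Pvt1 sums changed by -0.53 and -0.66. In set 1 and set 2 themselves, Myc changed by -0.52 and -0.0037 and Pvt1 by -0.68 and -0.21. After median-of-ratios scaling the Myc and Pvt1 sums changed by 0.20 and 0.016 in this comparison. In etomoxir + acetate vs. acetate they then changed by -0.14 and 0.021. In the fit of 4 libraries the sums passed in etomoxir + acetate vs. acetate (0.0116 and 0.00153), beside 59.5% of all symbols called higher. The widest single values were 1.30 ± 0.54 at Myc -18.1 kb and 0.98 ± 0.51 at Pvt1 +32.1 kb for etomoxir + acetate vs. acetate, with the lowest at Myc +3.2 kb (0.29 ± 0.17) and Myc -23.0 kb (0.34 ± 0.47). With SB204990 added to etomoxir + acetate they were -1.02 ± 0.56 at Pvt1 +29.7 kb and -0.87 ± 0.51 at Pvt1 +32.1 kb, with the highest at Myc -23.0 kb (-0.23 ± 0.47) and Myc +18.5 kb (-0.24 ± 0.40). For etomoxir + SB204990 + acetate vs. acetate they were 1.00 ± 0.54 at Myc -18.1 kb and 0.32 ± 0.40 at Myc +18.5 kb, and -0.23 ± 0.50 at Pvt1 +28.4 kb and -0.19 ± 0.55 at Myc -25.5 kb. In the order of mean Pvt1 sums, etomoxir + acetate (33437 ± 660, SD, n = 2) came first, then etomoxir + SB204990 + acetate (24824 ± 5243), acetate (24297 ± 1218), etomoxir (20011 ± 342), vehicle (18367 ± 2023) and etomoxir + SB204990 (15794 ± 3682). The libraries of etomoxir + SB204990 + acetate and of acetate overlapped, and so did those of vehicle with both groups next to it. For Myc the order of means was the same, from 5733 ± 43.8, 4865 ± 1250 and 4663 ± 583 to 4031 ± 198, 3370 ± 212 and 2824 ± 170 (SD, n = 2).

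The ratio of the 2 genes was not constant between libraries. The Pvt1 sum was 4.48 to 6.80 times the Myc sum, and both ends of that range came from etomoxir + SB204990, set 1 and set 2. Over the 12 libraries, the Myc share ranged more widely than the Pvt1 share relative to its mean, from 0.0377% to 0.0550% vs. 0.233% to 0.258%. Myc had fewer reads, and 1 interval held 95.2% of its signal, but whether either bears on the wider range was not tested. After the library median was removed, the log2 sums of Myc and Pvt1 had a Pearson r of 0.75 over the 12 libraries, which placed Pvt1 at rank 3729 of 13205 symbols in likeness to Myc and Myc at rank 1595 in likeness to Pvt1. The symbols most like Myc were Tnrc18, H2-DMa, Gm13833, Dusp4 and Rps29 (r = 0.993 to 0.990), none of them on chromosome 15. Those most like Pvt1 were Zpr1, Elovl7, Gm27048, Rnf41 and Fam49b (r = 0.970 to 0.945), and Fam49b lies on chromosome 15. These are descriptions over libraries that share depth, factor and library quality.

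Around the locus, 459 other intervals lay within 3 Mb of the Myc start. Of the 379 that were tested, limma called 278 higher in the acetate average, 217 in etomoxir, 76 in etomoxir + SB204990 and 1 in acetate vs. vehicle, and 0 lower in any of these, beside 77.2%, 56.4%, 27.4% and 0.0955% of all tested intervals called higher. The neighbours' medians were 0.59, 0.80, 0.49 and 0.45, beside 0.64, 0.83, 0.62 and 0.48. By symbol the average changes were 0.60 for Gm49498, 0.56 for Gm41333 and 0.64 for 1700010G06Rik. Of 8 flanking protein-coding genes listed, Fam84b, Gsdmc and Adcy8 had no interval under that symbol, and the 5 others all rose in the average, Nsmce2, a SUMO ligase, by 0.60, Fam49b by 0.60, Trib1, a pseudokinase, by 0.59, Asap1, an Arf GTPase-activating protein, by 0.59, and Sqle, squalene epoxidase of cholesterol synthesis, by 0.50, with a median of 0.59 beside 0.62 over all symbols. Limma called all 5 higher in the average and in etomoxir, 3 of 5 in etomoxir + SB204990 and 0 of 5 in acetate vs. vehicle. Beside these, 77.5%, 66.0%, 45.2% and 0.0% of all symbols were called higher in the same order. Though not called in acetate vs. vehicle, the 5 changed there by 0.33 to 0.45.

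The MYC network was taken as a list of 13 genes (partners, antagonists and paralogs), of which Mlxipl had no interval. In the average 11 of the other 12 were called higher with acetate and 0 lower, with a median of 0.64, beside 77.5% of all symbols called higher and their median of 0.62. They included Max, the partner that MYC needs for binding (0.61), Mnt, a repressor that competes for MAX (0.63), Mxi1, another antagonist (0.79), Mycl, a paralog (0.68), and Zbtb17, a partner at repressed genes (0.81). Mycn, the neural paralog, had a mean sum of only 12.9 and changed by 0.60 with a limma adjusted p of 0.122. In etomoxir 10 of 12 were called higher, in etomoxir + SB204990 8, and in acetate vs. vehicle 0, with medians of 0.82, 0.68 and 0.48, beside 66.0%, 45.2% and 0.0% of all symbols and medians of 0.78, 0.62 and 0.47. Though not called in acetate vs. vehicle, the 12 changed there by 0.39 to 0.84.

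Of 20 textbook targets of MYC, Tert and Hk2 had no interval, and 17 of the other 18 were called higher in the average, beside 77.5% of all symbols, with a median of 0.65 beside 0.62. Cad, which starts pyrimidine synthesis, changed by 0.87, Nolc1, a nucleolar protein, by 0.73, Ldha, lactate dehydrogenase, by 0.67, Cdk4, a cell cycle kinase, by 0.64, Odc1, of polyamine synthesis, by 0.61, and Npm1, nucleophosmin, by 0.57. Ncl, nucleolin, changed by 0.54 and did not pass (limma adjusted p = 0.116). In etomoxir 17 of 18 were called higher, in etomoxir + SB204990 12, and in acetate vs. vehicle 0, with medians of 0.71, 0.74 and 0.46, beside the same shares and medians of all symbols as above. Though not called in acetate vs. vehicle, the 18 changed there by 0.27 to 0.65. None of the network genes, targets or flanking genes passed in etomoxir vs. vehicle or in etomoxir + SB204990 vs. vehicle, where 0.00898% and 0.0% of all symbols were called higher and 0.0% and 0.0% lower. Over the whole table, 0.00449% of symbols were called lower in etomoxir and 0.0404% in etomoxir + SB204990.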

How the data were processed

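H3K27ac ChIP-seq libraries of 4T1 cells were fixed, digested with MNase, precipitated and sequenced by the authors, who aligned reads to a merged human and mouse (mm10) genome with nf-core/chipseq 1.2.2 and multiplied each library's read counts by a factor from its percentage of human reads relative to the highest. The deposited signal values are therefore spike-in-scaled, and 2 libraries with a factor of 1, 1 in each set, hold the counts themselves, so that the sets may be on separate scales. Whole reads were recovered for 100.0% of values (tolerance 0.01). No value column was left unmapped (0).

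Intervals with a mean of at least 10 (63903) and sums for 22264 symbols were tested with limma 3.58.1 on log2(value + 1) in R 4.3.3, with 6 group means, 12 libraries, an intensity trend and Benjamini-Hochberg adjustment within a comparison. Sums were also tested by exact permutation within backgrounds, with labels swapped between sets as well (SciPy 1.17.1). edgeR 4.0.16, DESeq2 1.42.0, other scalings, filters and omissions were alternatives. Fitting was tested on simulated data. Gene borders came from GENCODE M21 and sequence from GRCm38.p6. Members and lists were chosen with earlier results of these data known. Named with values were the start-site intervals, the 10 strongest members and, per comparison, the 2 largest and 2 smallest changes.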

Additional observations from a re-analysis of the deposited data

How the results depend on the processing

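The number of members called was 0 in all 3 acetate comparisons with calls (etomoxir, etomoxir + SB204990 and the average) after median-of-ratios scaling, total-sum scaling or shares of reads multiplied by the factor, beside at most 0.0782% of all tested intervals called higher and 0.0141% lower. Without an intensity trend it was 2 in etomoxir and 0 in etomoxir + SB204990 (35.9% and 0.0% of all tested intervals higher). With only the libraries of the comparison it was 5 in acetate vs. vehicle, 15 in etomoxir and 0 in etomoxir + SB204990 (23.3%, 84.0% and 0.0% of all tested intervals higher), and with a mean of at least 50 it was 1 in acetate vs. vehicle (25.6%). Leaving out 1 library gave 0 to 2 members in acetate vs. vehicle, 4 to 14 in etomoxir, 1 to 12 in etomoxir + SB204990, 7 to 16 in the average and 0 to 1 in etomoxir + SB204990 vs. vehicle. All tested intervals called higher under the same omissions were 0.0% to 21.2%, 8.05% to 76.8%, 3.31% to 71.6% and 58.2% to 94.8% in the first 4, and 0.0% to 3.92% were called lower in the last. A replicate block on the 2 sets gave 9 and 6 members in etomoxir and etomoxir + SB204990 and 11 in the average (63.7%, 32.3% and 81.2% of all tested intervals higher), and changed no call on a sum. The main fit has no block on the set numbers, because only 3 of 15 pairs of groups had a correlation of set differences over 0.1. That correlation runs over intervals and cannot show a scale shift that all intervals share. It therefore does not decide whether the sets differ in scale, and such a difference stays in the errors of the main fit. Differences within a set are given only as values.

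The acetate average turned from positive to -0.058 for the Myc sum and -0.035 for the Pvt1 sum after median-of-ratios scaling, and to -0.048 and -0.025 after total-sum scaling, with -0.058 and -0.040 at Myc +3.2 kb and -0.025 and -0.0072 at Pvt1 +123.4 kb. Shares of reads multiplied by the factor gave 0.37 and 0.40 for the sums. In acetate vs. vehicle both scalings gave -0.022 and -0.0058 for Myc and -0.080 and -0.063 for Pvt1, in etomoxir -0.28 and -0.23 for Myc and -0.048 and -0.0025 for Pvt1, and in etomoxir + SB204990 total-sum scaling gave -0.010 for Pvt1. In etomoxir vs. vehicle the Pvt1 sum was -0.011 and -0.0043 after these scalings and -0.093 as shares multiplied by the factor. In etomoxir + SB204990 vs. vehicle, shares multiplied by the factor gave 0.021 for Myc and 0.043 for Pvt1, Myc without its strongest interval was 0.041, and Pvt1 ranged from -0.47 to 0.0068 with 1 library left out, above 0 without the set 1 library of etomoxir + SB204990.

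In the exact permutation test, shares multiplied by the factor gave 0.37 for Myc (p = 0.0463), 0.40 for Pvt1 (p = 0.139) and 0.39 for both genes (p = 0.130), and the Myc sum without its strongest interval gave 0.48 (p = 0.0556). Leaving out 1 library gave 0.49 to 0.67 for Myc and 0.52 to 0.68 for Pvt1. For the share of the total it gave -0.14 to 0.043 for Myc, with 0.0016 without the set 1 vehicle library, and -0.040 to -0.020 for both genes, with p = 0.0278 in the permutation test without the set 2 library of etomoxir + SB204990 + acetate. The share of both genes without Pvt1 +123.4 kb, the strongest interval, and with Myc +3.2 kb kept, was -0.061 (exact permutation p = 0.0463), lower with acetate. The causes were not tested. The 13 short members held 370 to 535 reads per library in all.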
